A study of Drosophila melanogaster and Drosophila simulans and Drosophila yakuba with 27 samples.

Results

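The genes described here are 10 pore-forming subunits of voltage-gated ion channels: the sodium channel para and its relative NaCP60E, the potassium channels Sh, Shab, Shal, Shaw, eag and slo, the calcium channel cac, and the hyperpolarization-activated channel Ih. They were chosen by symbol in the table of normalised expression, where all 10 had a row among 15439 genes. Each was followed over all 27 libraries, apart from cac, which had no value in D. simulans, and Shab, which had none in D. pseudoobscura.

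The libraries came from wandering third-instar larvae raised at 25 °C, with 1 library each of eye-antennal disc, wing disc and brain from each of 9 lines. D. melanogaster was represented by the strains RAL-208 (genotype DGRP-208) and Canton S, and the other 7 lines were 1 each of D. ananassae, D. mojavensis, D. pseudoobscura, D. simulans, D. virilis, D. willistoni and D. yakuba. The D. simulans line carries w[501], an allele of white, the D. ananassae line has the genotype In(3R)A, named for an inversion, and the remaining species are labelled wild-type. No line had a second library of a tissue, so the replicates of a tissue were the 9 lines, and the SDs below hold species differences as well as sampling. Summed eye disc markers were at 444 to 635 in the eye-antennal libraries against 6.98 to 56.7 in the wing libraries, and wing disc markers at 303 to 548 in the wing libraries against 7.88 to 55.3. Eye-antennal libraries held 3642547 to 12811084 counted reads, wing libraries 4114414 to 14308891 and brain libraries 4943047 to 20473119.

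Voltage-gated channels open when the membrane potential changes, and they make nerve and muscle cells electrically excitable. Sodium channels carry the rising phase of the action potential, potassium channels repolarize the cell and set its firing pattern, and calcium channels at the synapse couple the action potential to transmitter release. The larval brain is made largely of neurons, neuroblasts and glia. The eye-antennal disc contains differentiating photoreceptors behind the morphogenetic furrow, whereas the wing disc is mostly undifferentiated epithelium with few sensory precursors and neurons. Several of these channel families were first defined by fly mutants, and para, Sh, eag and slo take their names from paralysis, leg shaking or sluggish behaviour.

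In D. melanogaster, the identifiers are FBgn0264255 for para, FBgn0003380 for Sh, FBgn0262593 for Shab, FBgn0005564 for Shal, FBgn0003386 for Shaw, FBgn0000535 for eag, FBgn0263111 for cac, FBgn0003429 for slo, FBgn0263397 for Ih and FBgn0085434 for NaCP60E. In the current Ensembl annotation, para, Sh, eag and cac lie on chromosome X, Shab and Shal on arm 3L, Shaw on 2L, slo on 3R, and Ih and NaCP60E on 2R. Exons of NaCP60E overlap those of pain on the opposite strand over 173 bases, 1.11% of its exonic length, and no other gene with a symbol of its own shares exon bases with any of the 10. The sources used here do not say whether reads were counted by strand.

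The deposited value behaved as a read count divided by the length of the gene model and by 1 factor per library, so it is a level per length. The lengths behind these values were recovered as whole units, up to a factor common to all genes of a line. For D. melanogaster the units were bases of a model that included untranslated sequence (4608 for Shal to 17766 for Sh). For the other species what a unit stands for is not known, so their lengths cannot be set against those of D. melanogaster. In these species but D. pseudoobscura the median length of a gene was 421 to 482 units. Among them para was at 307 in D. simulans against 1886 to 2202 in the other 5 species. NaCP60E was at 187 in D. virilis against 1355 to 2363 in the other 5. A short model rests on few reads, since para in the D. simulans brain had 24 and NaCP60E in the D. virilis brain 58. Levels set side by side between lines therefore hold model differences, while a plain ratio of the values of 2 tissues of 1 line does not depend on the length. The fitted differences in log2(value + 1) still do in part, because the added 1 weighs more where the level per length is low.

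All 10 genes had their highest mean level in the brain. Of the 8 genes measured in every line, 8 were lower in the eye-antennal disc than in the brain and 8 were lower in the wing disc than in the brain, by limma on log2(value + 1) with line as a block at an adjusted p under 0.05. The background was high: 26.8% of the 7677 genes tested were called lower in the eye-antennal disc and 32.0% lower in the wing disc. The genes cac and Shab, fitted over their 8 lines, were called lower in both discs too, where 25.6% and 31.2% of 9201 genes were. A gene entered the fit if 9 or more libraries had a value of 1 or above, a number that the brain libraries alone could supply. The brain libraries all reached it for each gene with a value, whereas eag did so in 2 eye-antennal and 0 wing libraries and para in 3 and 0, so these counts describe the genes and support nothing further. In whole tissue, fewer cells that express a gene and less RNA per cell cannot be told apart.

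**Figure D1:**
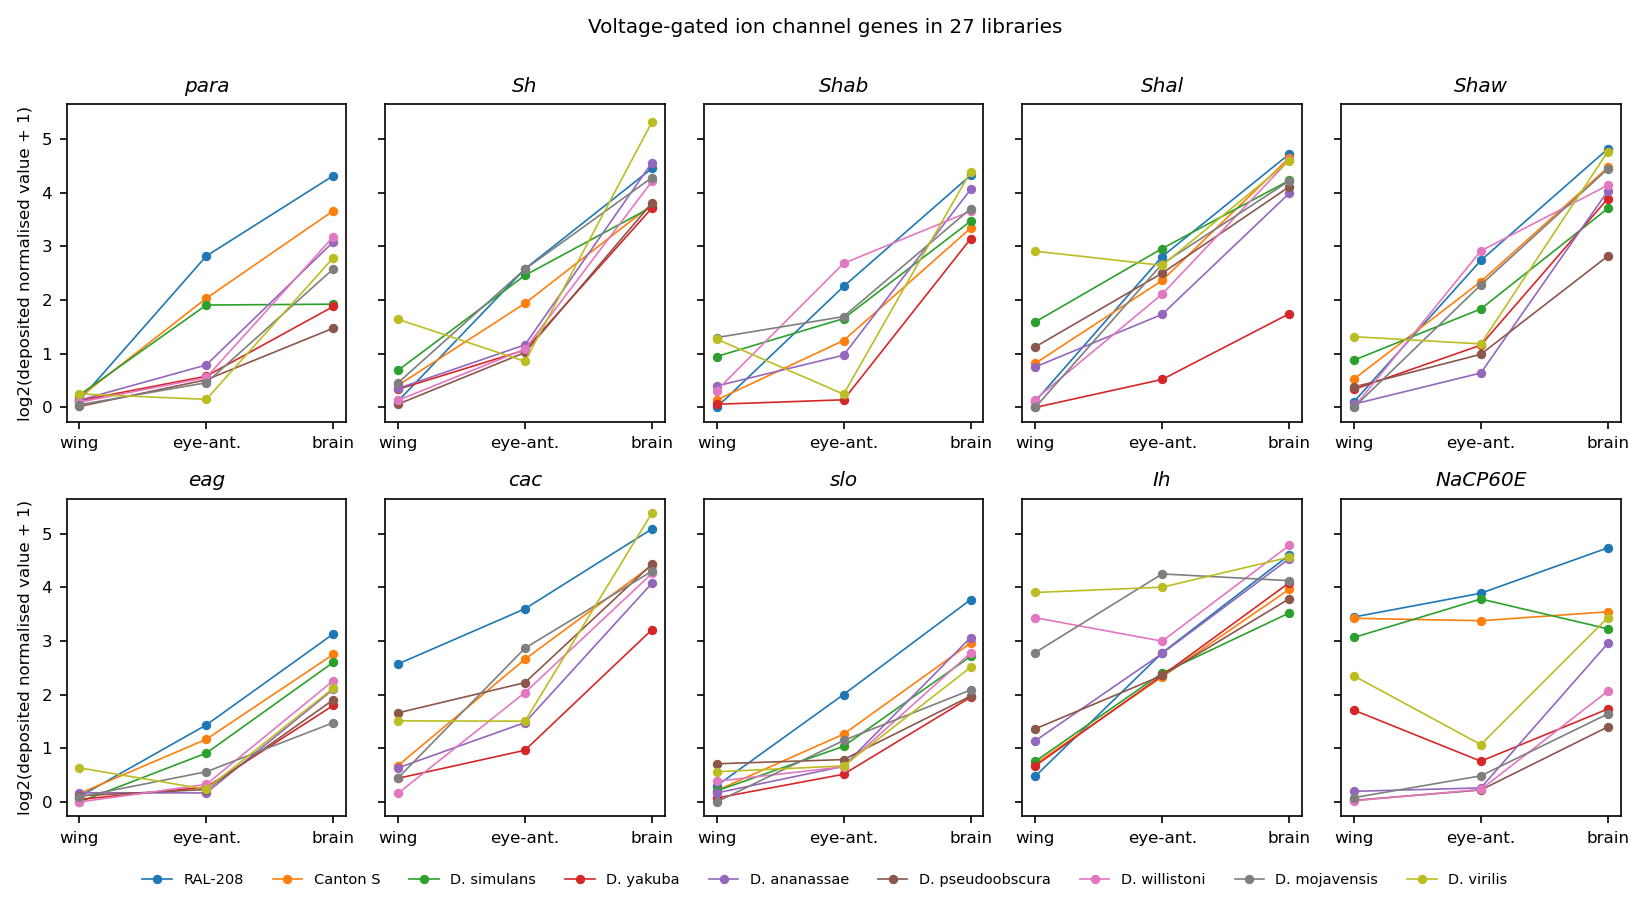
Each panel shows 1 gene, with log2(deposited normalised value + 1) on the vertical axis and wing disc, eye-antennal disc and brain on the horizontal axis; each coloured line joins the libraries of 1 fly line. The brain points lie highest for nearly every gene and line, and NaCP60E and Ih show the flattest lines, in different species.

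The sodium channel para, which carries the main neuronal sodium current of the fly, was measured in the brain at a lowest value of 1.79 in D. pseudoobscura, a median of 5.93 and a highest value of 19.0 in RAL-208 (7.16 ± 5.42, SD, n = 9 lines). In the eye-antennal disc it ranged from 0.110 in D. virilis over a median of 0.498 to 6.07 in RAL-208 (1.62 ± 1.997). In the wing disc it stayed between 0.0129 and 0.191, with 1 to 15 reads in a library. Wing and brain values did not overlap, and eye-antennal and brain values did because RAL-208, Canton S and D. simulans stood above the rest of the eye-antennal libraries. On the log2 scale para was 1.68 ± 0.28 (SE) lower in the eye-antennal disc than in the brain (adjusted p = 4.9e-05, limma) and lower in 9 of 9 lines. It was 2.63 ± 0.28 lower in the wing disc (adjusted p = 9.8e-08, limma), also in 9 of 9 lines. In D. simulans the eye-antennal level was 98.5% of the brain level, on 13 reads against 24.

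NaCP60E, a relative of the sodium channels that is also permeable to calcium, differed from para in its disc levels. Its brain values ran from 1.64 in D. pseudoobscura over a median of 6.76 to 25.7 in RAL-208 (7.84 ± 7.53). The wing discs of RAL-208 and Canton S were at 9.90 and 9.73, that of D. simulans at 7.37, that of D. virilis at 4.10 and that of D. yakuba at 2.28. The wing discs of D. ananassae, D. mojavensis, D. pseudoobscura and D. willistoni were at 0.147, 0.0571, 0.0214 and 0.0152. The higher values rested on 411, 1375, 251, 24 and 247 reads, in the same order, and the lower ones on 13, 1, 2 and 1. Thus the 4 lines of the melanogaster subgroup (Canton S, RAL-208, D. yakuba and D. simulans) and D. virilis were high, and the other 4 lines were near the limit of detection.

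In the eye-antennal disc NaCP60E was also highest in the lines of D. melanogaster and D. simulans. RAL-208 was at 13.8, D. simulans at 12.8, Canton S at 9.39, D. virilis at 1.10 and D. yakuba at 0.693, and the values were 0.167 to 0.402 in the remaining 4 lines. As a share of the brain level of the same line, the wing disc held 97.9% in D. yakuba, 91.2% in Canton S, 88.2% in D. simulans, 41.7% in D. virilis and 38.6% in RAL-208, but 0.477% to 2.69% in the other 4. The eye-antennal disc held 53.9% in RAL-208, 88.1% in Canton S and 29.8% in D. yakuba, then 19.0% in D. mojavensis and 11.2% in D. virilis, and 2.95% to 10.2% in the other 3 lines below D. simulans. In D. simulans the eye-antennal value was 152.6% of the brain value. By level, the D. virilis eye-antennal disc (1.10) was above that of D. yakuba (0.693). By share of brain, D. virilis stood with the melanogaster subgroup in the wing disc and not in the eye-antennal disc, where it had 6 reads. The neuropeptide markers of the same wing libraries, summed, were at 0.223%, 0.890%, 3.62%, 5.47% and 0.363% of their brain level in those 5 lines. Over all lines NaCP60E was 1.18 ± 0.28 lower in the eye-antennal disc than in the brain (adjusted p = 0.0014, limma; 8 of 9 lines) and 1.16 ± 0.28 lower in the wing disc (adjusted p = 0.0014, limma; 9 of 9 lines). Without the line block the adjusted p were 0.21 and 0.19, and in the 6 D. melanogaster libraries alone edgeR gave 0.24 and 0.13. Over the settings tried, the adjusted p ranged from 7.1e-05 to 0.24 for the first comparison and from 1.8e-05 to 0.19 for the second.

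**Figure D2:**
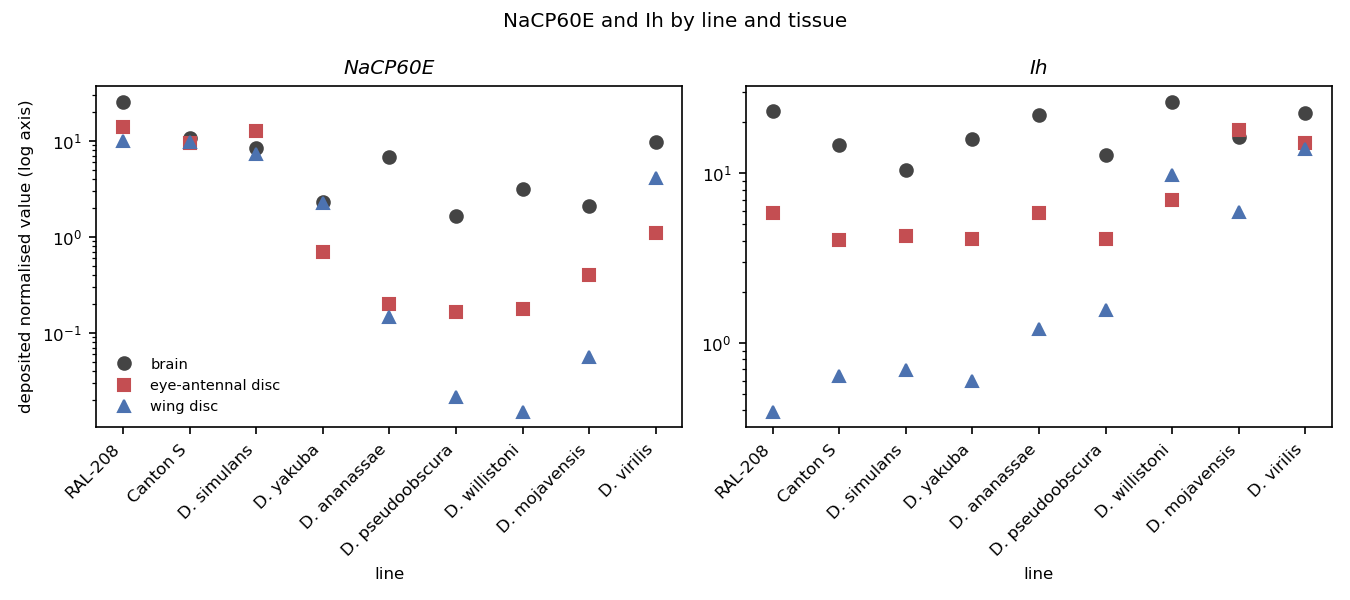
Deposited normalised values of NaCP60E (left) and Ih (right) on a log axis, for each of the 9 lines on the horizontal axis, with circles for brain, squares for eye-antennal disc and triangles for wing disc. The wing disc values of NaCP60E lie at 2.28 to 9.90 in the 4 melanogaster subgroup lines, at 4.10 in D. virilis and at 0.147 or less elsewhere, and those of Ih at 5.89 to 14.0 in D. willistoni, D. mojavensis and D. virilis and at 1.57 or less elsewhere.

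The 4 classical voltage-gated potassium channels carry the fast A-type current (Sh, mainly at axons, and Shal, mainly at cell bodies and dendrites) and the delayed rectifier currents (Shab and Shaw). Sh ranged in the brain from 12.1 in D. yakuba over a median of 17.5 to 38.9 in D. virilis (18.8 ± 8.53). It ranged from 0.814 over 1.25 to 4.99 in the eye-antennal disc and from 0.0431 over 0.278 to 2.13 in the wing disc. Neither disc overlapped the brain. Sh was 2.57 ± 0.27 lower in the eye-antennal disc (adjusted p = 9.2e-08, limma) and 3.74 ± 0.27 lower in the wing disc (adjusted p = 1.9e-10, limma). Among the 10 genes these were the largest estimates on log2(value + 1) in both comparisons. As a median share of the brain level, para (1.18%), Shaw (1.89%) and eag (1.99%) were below Sh (2.02%) in the wing disc. In the eye-antennal disc eag (8.52%) was below Sh (9.05%).

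Shal was at 2.36 in the D. yakuba brain and between 14.9 and 25.4 in the other 8 brains, with a median of 17.8 over all 9. D. yakuba was also the lowest line in both discs, at 0.437 in the eye-antennal disc and 0 in the wing disc. The eye-antennal values ran over a median of 4.67 to 6.80, and the wing values over a median of 0.687 to 6.53 in D. virilis. The D. yakuba brain therefore lay inside the range of the discs, while the other 8 brains lay above all disc values, and the ranges of the discs overlapped. Shal was 1.84 ± 0.28 lower in the eye-antennal disc (adjusted p = 1.3e-05, limma) and 3.27 ± 0.28 lower in the wing disc (adjusted p = 2.9e-09, limma), each in 9 of 9 lines.

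Shaw ranged from 6.07 in D. pseudoobscura over a median of 16.6 to 27.2 in RAL-208 in the brain. In the eye-antennal disc it ranged from 0.561 over 2.57 to 6.56, and in the wing disc from 0 over 0.262 to 1.496. The wing disc did not reach the brain range, whereas the D. willistoni eye-antennal disc passed the lowest brain. Its differences from brain were −2.33 ± 0.27 and −3.72 ± 0.27 (adjusted p = 4.9e-07 and 3.2e-10, limma).

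Shab, over 8 lines, ranged in the brain from 7.83 over 11.8 to 20.03 (13.2 ± 4.57). It ranged from 0.104 over 1.76 to 5.43 in the eye-antennal disc and from 0 over 0.282 to 1.47 in the wing disc, and neither disc overlapped the brain. The differences from brain were −2.40 ± 0.31 and −3.21 ± 0.31 (adjusted p = 3.9e-06 and 6.3e-08, limma with incomplete rows). In D. willistoni the eye-antennal disc held 46.8% of the brain level of Shab and 39.4% of that of Shaw, against 5.52% to 26.3% for the other 8 genes.

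The potassium channels eag, of the ether-a-go-go family, and slo, the large-conductance channel opened by calcium together with voltage, were the lowest by median in the brain. The gene eag ranged there from 1.78 in D. mojavensis over 3.35 to 7.77 in RAL-208, in the eye-antennal disc from 0.124 over 0.255 to 1.71, and in the wing disc from 0 over 0.0707 to 0.553. The discs did not overlap the brain, although the wing disc values rested on 0 to 20 reads. It was 1.65 ± 0.18 lower in the eye-antennal disc and 2.09 ± 0.18 lower in the wing disc (adjusted p = 1.5e-07 and 2.6e-09, limma). The pseudocount of 1 understates the change of a gene at this level. The gene slo ranged from 2.87 over 5.56 to 12.6 in the brain, from 0.430 over 0.729 to 3.01 in the eye-antennal disc and from 0 over 0.159 to 0.638 in the wing disc. RAL-208 was highest in the first 2 of these tissues, and only the wing disc was separate from the brain. The slo differences were −1.67 ± 0.19 and −2.35 ± 0.19 (adjusted p = 3.4e-07 and 1.4e-09, limma).

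The calcium channel cac, the presynaptic channel that triggers transmitter release, had the highest median of the 10 genes in the brain, at 19.5 over 8 lines, from 8.26 in D. yakuba to 40.8 in D. virilis. It ranged from 0.950 over 3.39 to 11.1 in the eye-antennal disc and from 0.117 over 0.575 to 4.94 in the wing disc. The wing disc values stayed below every brain value. The differences were −2.23 ± 0.25 and −3.38 ± 0.25 (adjusted p = 8.4e-07 and 2.0e-09, limma with incomplete rows). With edgeR on the D. melanogaster counts the first of these was −1.78 (adjusted p = 0.093, over a range from 7.9e-07 in the settings tried). The highest wing disc value, in RAL-208, came from 148 reads, where Canton S had 61 reads in a library sequenced more deeply. In the same RAL-208 library the other genes except NaCP60E had 0 to 12 reads.

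Ih, which opens on hyperpolarization and is gated by cyclic nucleotides, had a median of 27.6% of the brain level in the eye-antennal disc, the highest of the 10 genes, and of 6.58% in the wing disc, below the 38.6% of NaCP60E and above the other 8. Its brain values lay between 10.5 in D. simulans and 26.5 in D. willistoni, with a median of 16.4. In the eye-antennal disc 7 lines lay between 4.04 and 6.98, while D. virilis was at 15.0 and D. mojavensis at 18.02. In the wing disc it was at 0.393 in RAL-208, between 0.593 and 0.690 in D. yakuba, Canton S and D. simulans, at 1.20 in D. ananassae and at 1.57 in D. pseudoobscura. It reached 9.81 in D. willistoni, 5.89 in D. mojavensis and 14.0 in D. virilis. The last 3 lines stood apart from the first 6, on 436, 97 and 414 reads against 12 to 81.

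Relative to the brain of the same line, the eye-antennal disc held 25.2% to 40.8% of the Ih level in 7 lines, 66.4% in D. virilis and 109.6% in D. mojavensis. The wing disc held 1.69% to 12.3% in the first 6 lines and 37.0%, 35.8% and 61.8% in D. willistoni, D. mojavensis and D. virilis. Ih was 1.30 ± 0.29 lower in the eye-antennal disc than in the brain (adjusted p = 0.00078, limma; 8 of 9 lines) and 2.52 ± 0.29 lower in the wing disc (adjusted p = 2.3e-07, limma; 9 of 9 lines). The neuropeptide markers were at 0.352% and 0.116% of brain in the wing libraries of D. willistoni and D. mojavensis, and at 5.47% in that of D. virilis.

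**Figure D3:**
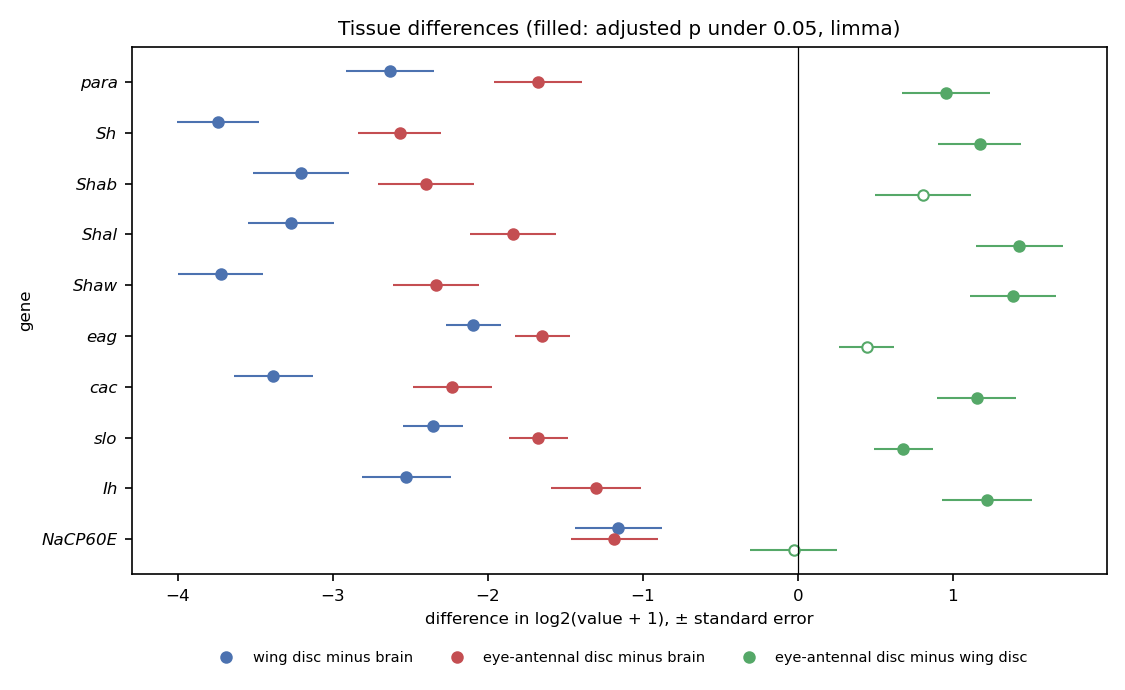
Differences in log2(value + 1) between tissues for each gene, with bars of 1 standard error and filled points for an adjusted p under 0.05 by limma. All 20 differences from brain are filled and negative; between the discs, eag, Shab and NaCP60E are open.

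Counting only genes measured in all lines, 2 of 8 (Sh and eag) had eye-antennal ranges entirely below the brain range, against 7.22% of the genes tested. For the wing disc 5 of 8 did (para, Sh, Shaw, eag and slo), against 10.8%. A wing disc value of 0 occurred 8 times and only there: Shal in D. yakuba and D. mojavensis, Shaw in D. willistoni and D. mojavensis, eag in D. simulans and D. willistoni, slo in D. mojavensis and Shab in RAL-208. Where reads could be recovered, a count of 0 allows up to 3 reads, or a value of up to 0.0733 (eag, D. willistoni) to 0.406 (Shal, D. mojavensis), a limit that covers counting error only.

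The discs differed from each other in 7 of the 10 genes. Of the 8 genes with a value in every line, 6 were higher in the eye-antennal disc than in the wing disc (para, Sh, Shal, Shaw, slo and Ih), and cac, fitted over 8 lines, was higher too. Markers of muscle, glia, neuroblasts and neurons moved the same way: 5 of 7 muscle, 5 of 6 glial, 4 of 5 neuroblast and 5 of 6 neuronal genes with complete rows were called higher in the eye-antennal disc. Summed muscle markers were at 138 to 1181 there and at 24.3 to 324 in the wing disc, glial markers at 65.5 to 141 and 28.2 to 55.8, and neuroblast markers at 25.8 to 104 and 22.6 to 33.9. The neuroblast sum of the wing disc was largely dpn, at medians of 22.4 there, 26.8 in the eye-antennal disc and 32.7 in the brain. Much of the glial sum there was loco, at 18.6, 32.0 and 23.4 in the same order. The part of these cell types in the channel values was not tested. Over all genes tested 15.0% were called higher (14.4% in the fit with incomplete rows). Shal was 1.43 ± 0.28 higher, Shaw 1.39 ± 0.27, Ih 1.22 ± 0.29, Sh 1.17 ± 0.27, cac 1.15 ± 0.25, para 0.96 ± 0.28 and slo 0.68 ± 0.19. In this order the adjusted p by limma were 0.0008, 0.00091, 0.0042, 0.0030, 0.0030, 0.020 and 0.014. The values for Shab, 0.81 ± 0.31 (adjusted p = 0.079, limma), eag, 0.44 ± 0.18 (0.084), and NaCP60E, −0.03 ± 0.28 (0.96), did not pass. The calls of Shab and eag depended on the fit: edgeR on the D. melanogaster counts gave 4.63 for Shab (adjusted p = 0.018) and 3.69 for eag (0.0043), and a pseudocount of 0.1 gave 1.5002 for eag (0.011, limma). That of cac was lost with edgeR (1.91, adjusted p = 0.15) and without the line block (0.069, limma), where para (0.10), slo (0.061) and Ih (0.066) also missed the threshold. Over all settings the adjusted p ran from 0.011 to 0.31 for Shab, 0.0043 to 0.70 for eag and 0.00046 to 0.15 for cac. Of the genes called, slo was higher in 9 of 9 lines, cac in 7 of 8 and the rest in 8 of 9. D. virilis went the other way in most genes: its wing disc exceeded its eye-antennal disc for para, Sh, Shab, Shal, Shaw, eag, cac and NaCP60E.

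Transcripts of brain neuropeptides were detected in disc libraries, at levels that varied between lines. The sum of 7 neuropeptide genes expressed in small groups of neurons (hug, Dms, capa, Ilp2, Ilp3, Pdf and Crz) was 314 to 515 in the brain libraries, 2.65 to 93.4 in the eye-antennal libraries and 0.420 to 17.2 in the wing libraries. As a share of the brain of the same line, it was 23.5% in the RAL-208 eye-antennal disc, 10.7% in that of D. simulans, 6.09% in D. mojavensis, 4.86% in Canton S and 3.53% in D. willistoni, and 0.844% to 2.57% in the other 4. Among the wing discs it was 5.47% in D. virilis, 3.62% in D. simulans and 1.00% or less in the rest. The number of the 7 genes above a value of 1 was 7 in the eye-antennal discs of RAL-208 and Canton S, 5 in those of D. simulans, D. willistoni and D. mojavensis, 2 or 3 in the others, 4 in the D. virilis wing disc, and 0 to 3 in the other wing discs.

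The channel genes followed this order only in part. Medians of their shares of the brain level were taken over 9 genes in D. simulans and D. pseudoobscura and over 10 in the other lines. The median share was 36.6% in the D. simulans eye-antennal disc, 26.8% in D. mojavensis, 23.8% in RAL-208 and 22.0% in Canton S, and 5.08% to 17.8% in the other 5. RAL-208, highest by neuropeptides, was thus below D. simulans and D. mojavensis, and D. pseudoobscura (17.8%) and D. yakuba (13.3%) were above D. willistoni (12.0%). In the wing disc the median share was 8.64% in D. virilis, 6.58% in D. simulans and 0.599% to 4.97% in the other 7. The 4.97% was that of D. pseudoobscura, where the neuropeptide sum was at 0.190% of brain. Pan-neuronal markers, summed over the genes with a value among 9, were at 169.9 to 449 in the eye-antennal discs and 124.0 to 232 in the wing discs, against 619 to 1029 in the brain. Csp and Syx1A weighed heavily in the wing sums, at medians of 105 and 40.9 there against 156 and 54.5 in the brain. The genes n-syb, Syt1, brp, Snap25, cpx and nwk had wing medians of 0.401 to 2.13 against 34.8 to 127. The median marker was at 1.05% (D. willistoni) to 7.81% (D. simulans) of brain in the wing discs. The part of brain tissue in the channel values of the discs was not tested. Each of D. mojavensis, D. simulans, D. virilis and both D. melanogaster strains had a disc with the neuropeptide sum at 4.86% of brain or more. The other 4 lines were below that, but not free of these transcripts. In the D. willistoni eye-antennal disc the sum was at 3.53%, with 5 of the 7 genes above a value of 1. With the first 5 lines left out, all 10 genes were called lower in both discs than in the brain. Brain transcripts in a disc would only lessen such a difference, so this fit is no check of it. The differences were −1.67 to −2.99 in the eye-antennal disc and −1.55 to −3.85 in the wing disc. Of the genes with complete rows, 20.3% and 26.0% were called lower in this fit. Between the discs only Sh was then called (0.87 ± 0.20, adjusted p = 0.023, limma), on 4 lines and with 8.01% of genes called higher, and the other estimates were 1.23 for Shaw, 1.21 for Shal, 1.01 for Shab, 0.97 for Ih, 0.95 for cac, 0.52 for para, 0.32 for slo, 0.17 for eag and −0.12 for NaCP60E (adjusted p = 0.059 to 0.91, limma). In these 4 lines 4 muscle, 5 glial, 1 neuroblast and 5 neuronal markers were called higher in the eye-antennal disc.

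**Figure D4:**
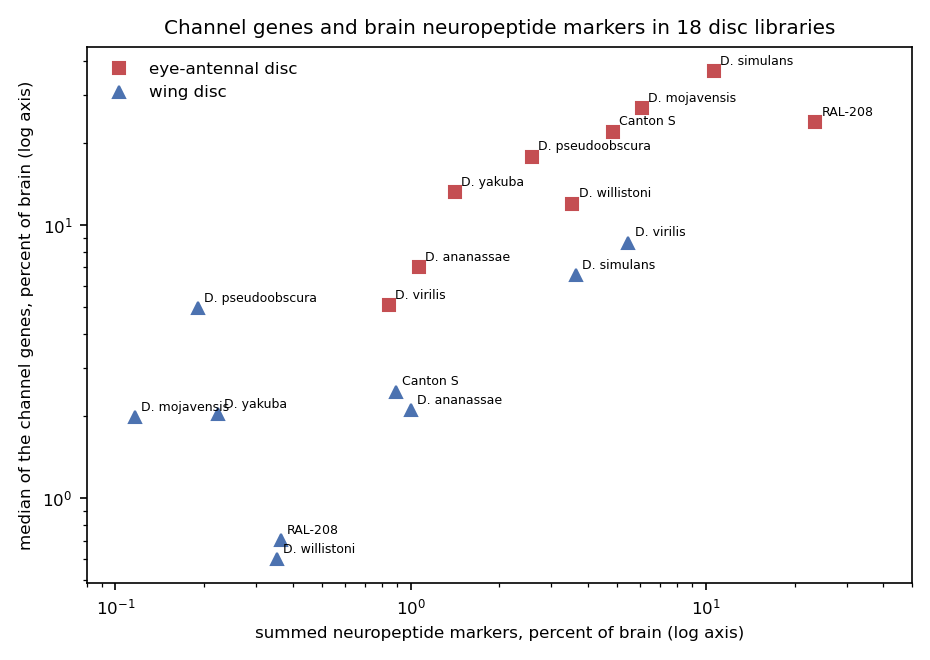
For the 18 disc libraries, the summed neuropeptide markers (horizontal, percent of the brain of the same line) are plotted against the median of the channel genes (vertical, percent of brain), both on log axes, with squares for eye-antennal and triangles for wing discs. The D. virilis and D. simulans wing discs lie above the other wing discs, at 8.64% and 6.58% of brain.

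**Figure D5:**
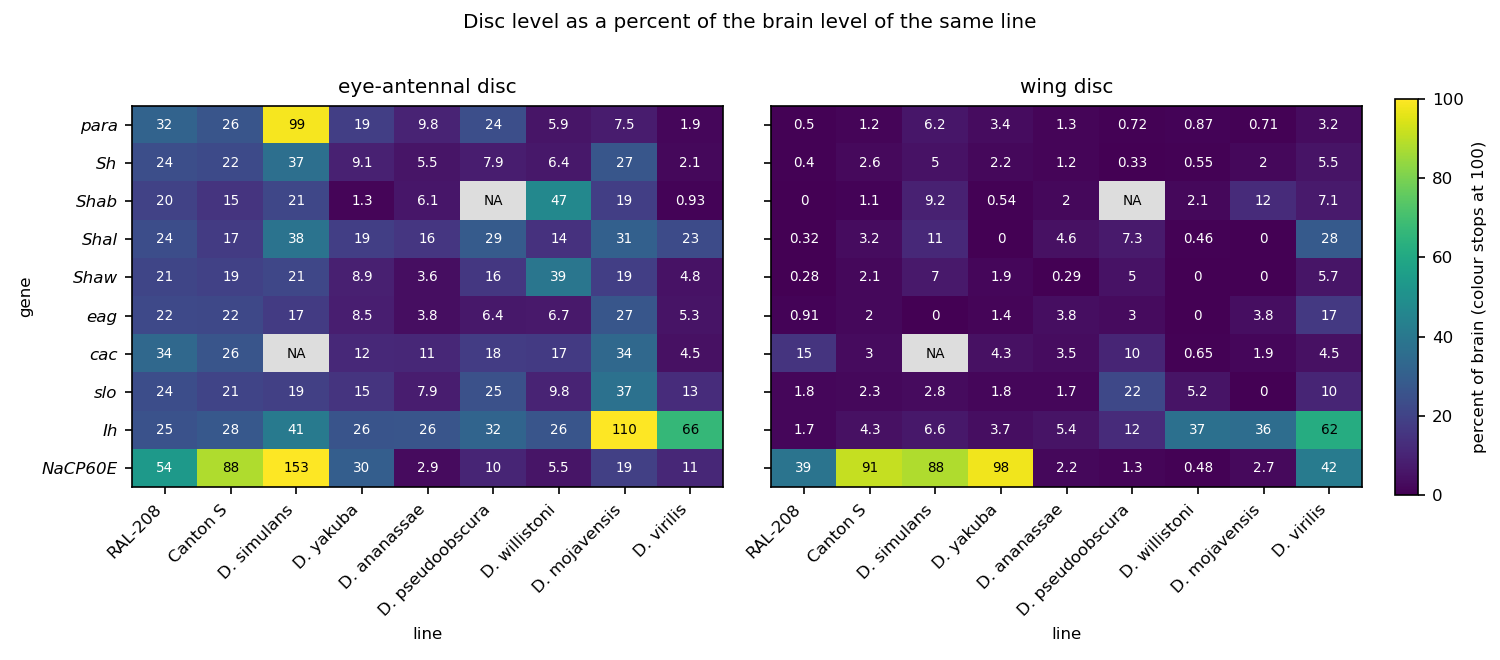
Each cell gives a gene's disc level as a percent of its brain level in the same line, with eye-antennal discs on the left and wing discs on the right; grey cells have no value. Bright cells outside NaCP60E are para in the D. simulans eye-antennal disc (98.5%), Ih in the eye-antennal discs of D. mojavensis (109.6%) and D. virilis (66.4%), and Ih in the D. virilis wing disc (61.8%).

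Whether a tissue difference changed between lineages was asked with an interaction term of tissue and lineage, the melanogaster subgroup of 4 lines against the other 5. These lines share ancestry and are not independent draws. None of the 8 genes with complete rows was called by limma, where the background was 0.0% of genes for eye-antennal disc against wing disc, 0.0651% for eye-antennal disc against brain and 0.534% for wing disc against brain. By limma, 396, 813 and 982 of the 7677 genes had an unadjusted p under 0.05 in these comparisons. Shab and cac, in the fit with incomplete rows, were not called either, where 0.0545% and 0.643% of genes were in the comparisons with brain. NaCP60E had an interaction of 1.49 ± 0.44 for eye-antennal disc minus brain (adjusted p = 0.26, limma) and 1.37 ± 0.44 for wing disc minus brain (adjusted p = 0.18, limma). That of Ih was −1.56 ± 0.48 for wing disc minus brain (adjusted p = 0.16, limma).

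With the lines divided instead into the melanogaster group (the subgroup and D. ananassae) and the other 4 lines, the Ih interaction for wing disc minus brain was −1.95 ± 0.39 (adjusted p = 0.025, limma), where 0.808% of genes were called. The wing disc thus lay further below the brain in the melanogaster group for Ih. Leaving D. ananassae out of the subgroup comparison also gave −1.95 (adjusted p = 0.046, limma), and over all settings the adjusted p ranged from 0.025 to 0.43. D. willistoni, D. mojavensis and D. virilis carried the high wing disc values, and D. pseudoobscura, in the same group of 4, did not.

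The D. melanogaster strains were compared on read counts with edgeR in the 6 libraries of this species, adjusting for tissue, which left 2 residual degrees of freedom. None of the 10 genes was called, against 0.295% of 9476 genes (28), with 1577 genes at an unadjusted p under 0.05. DESeq2 called 2 of them, slo and cac, against 5.32% of genes. The largest differences, all higher in RAL-208, were 1.44 ± 0.49 for cac, 1.00 ± 0.43 for Shab, 0.89 ± 0.14 for slo and 0.66 ± 0.21 for para (adjusted p = 0.27, 0.34, 0.13 and 0.26, edgeR). For slo, RAL-208 had a CPM (reads scaled to a common library total) of 76.9 in the brain against 45.2 in Canton S, 19.0 against 8.96 in the eye-antennal disc and 1.46 against 1.03 in the wing disc. For cac the values were 232 against 155.5 in the brain, 81.3 against 39.3 in the eye-antennal disc and 36.0 against 4.48 in the wing disc. With the wing libraries left out, para, Sh, Shab, cac and slo were called, at 0.71 to 1.18, where 3.59% of 9287 genes were. That fit left fewer than the 2 residual degrees of freedom of the full fit. Leaving out the brain or the eye-antennal libraries instead called 0 genes. The RAL-208 eye-antennal disc is the one with the neuropeptide sum at 23.5% of brain, and its part in these differences was not tested.

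Ordered by median brain level per length, the genes ran cac (19.5), Shal (17.8), Sh (17.5), Shaw (16.6), Ih (16.4), Shab (11.8), NaCP60E (6.76), para (5.93), slo (5.56) and eag (3.35). Neighbours in the first 5 places were not separated, since cac exceeded Shal in 6 of 8 lines and each of Shal, Sh and Shaw exceeded the next gene in 5 of 9. Ih exceeded Shab in 8 of 8 lines and slo exceeded eag in 9 of 9, while NaCP60E exceeded para in 3 of 9 although its median was higher. This order holds the model lengths given above.

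Other genes of membrane excitability were read from lists of subunits and partners. Their counts stand against the same background: 26.8% of all genes tested were lower in the eye-antennal disc than in the brain, 32.0% were lower in the wing disc, and 15.0% were higher in the eye-antennal than in the wing disc. In the other direction, 1978 of the 7677 genes were called higher in the eye-antennal disc than in the brain. For the wing disc 2164 were called higher than in the brain. Of 5 further potassium channel alpha subunits, all 4 with complete rows were lower in each disc than in the brain (medians −2.19 and −2.99, against 0.00 and −0.02 over all genes tested), and the fifth, over fewer lines, also. SLO2, a potassium channel of the slo family, was at 9.46 ± 1.51 in the brain, 0.990 ± 0.549 in the eye-antennal disc and 0.172 ± 0.215 in the wing disc, with differences from brain of −2.43 ± 0.16 and −3.16 ± 0.16. The voltage-gated relatives Ca-alpha1D (an L-type calcium channel), Ca-alpha1T (a T-type calcium channel) and na (the sodium leak channel) were called lower in both discs, and higher in the eye-antennal than in the wing disc, 3 of 3 each time. The narrow abdomen gene na was at 36.2 in the brain, 6.12 in the eye-antennal disc and 1.23 in the wing disc.

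All 13 auxiliary subunits and channel modifiers were lower in both discs, and 10 of 13 were higher in the eye-antennal than in the wing disc (5 of 13 without the 5 lines named above, where 8.01% of all genes were). They include Teh4, a relative of the para partner tipE, at 16.1 in the brain, 4.53 in the eye-antennal disc and 0.259 in the wing disc, and stj, the alpha2-delta subunit of the cac channel, at 27.7, 6.95 and 0.631. The difference between the discs was 2.05 ± 0.21 for Teh4 and 2.01 ± 0.28 for stj (adjusted p = 4.5e-07 and 2.1e-05, limma). The gene qvr (sleepless or quiver), which modulates Sh, was at 44.4, 9.99 and 5.97, with a wing disc SD of 14.9 over the 9 lines. Of 5 leak and inward rectifier channels tested, 4 were lower in the eye-antennal disc and 5 in the wing disc. The leak channel Task6 fell from 67.4 in the brain to 7.88 and 1.44, differences of −3.18 ± 0.32 and −5.03 ± 0.32. These were larger than any of the 10 channel genes showed on log2(value + 1), a scale that understates the change of low genes such as para and eag.

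Of 12 neurotransmitter-gated channels tested, 10 were lower in the eye-antennal disc than in the brain and 11 in the wing disc. The exception that was called higher in the eye-antennal disc was HisCl1, a histamine-gated chloride channel, at 8.06 ± 4.35 against 1.91 ± 1.00 in the brain (1.57 ± 0.23, adjusted p = 1.1e-05, limma) and 0.660 ± 0.989 in the wing disc. The acetylcholine receptor subunit nAChRalpha2 was at 45.6 in the brain, 3.38 in the eye-antennal disc and 0.551 in the wing disc. The sodium pump, which restores the ion gradients, was less uneven: Atpalpha, its catalytic subunit, was at 400 ± 51.6 in the brain, 266 ± 49.4 in the eye-antennal disc and 237 ± 41.9 in the wing disc. Its beta subunits parted, with nrv3 (over 8 lines) at 152 in the brain, 24.6 in the eye-antennal disc and 2.72 in the wing disc, and nrv1 at 64.3, 95.9 and 72.6.

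Among regulators of channel transcripts, pum and brat, which repress para translation in D. melanogaster, were lower in both discs, brat by 1.01 ± 0.18 in each (adjusted p = 9.6e-05 and 7.0e-05, limma). The splicing factor ps (pasilla), which acts on para splicing, was higher, at 12.7 in the brain, 16.6 in the eye-antennal disc and 19.8 in the wing disc (0.37 ± 0.12 and 0.66 ± 0.12, adjusted p = 0.013 and 7.2e-05, limma). Of 4 regulators tested, 3 were lower and 1 higher in each disc than in the brain. Among complete rows, neither the pump genes nor these regulators had a member called between the discs.

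The profiles of the genes over the 27 libraries, each centred within its line, were alike. Over the 28 pairs of the 8 genes with complete rows, Pearson's r ran from 0.579 to 0.9801 with a median of 0.931, a description in which all points share the libraries and the contrast of brain with discs. Sh lay closest to the mean profile of the 8 (0.988), and NaCP60E (0.815) and Ih (0.906) farthest. Each of the 8 is part of that mean, which raises its r, whereas genes outside the 10 are not. Outside the 10, the genes most like the mean profile were Nckx30C (0.990), a sodium, potassium and calcium exchanger, CG18265 (0.989), CG34113 (0.989), nAcRalpha-30D (0.988), an acetylcholine receptor subunit, and CG33988 (0.988). The nearest gene was Ca-alpha1T for para (0.974), CG34113 for Sh (0.992), 7B2 for Shal (0.9803), Rab3 for Shaw (0.990), CG31191 for eag (0.982), nAcRalpha-30D for slo (0.985), Tace for Ih (0.957) and CG4707 for NaCP60E (0.921). CG4707 was at 25.7 in the brain, 21.2 in the eye-antennal disc and 20.5 in the wing disc.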

How the data were processed

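Libraries were Illumina TruSeq preparations of RNA from the RNAqueous micro kit, per the labels' protocols. Reads were aligned with TopHat2 2.0 and counted with HTSeq, per the submitters' processing notes; the sources used here give no build, annotation or ortholog map. The authors deposited read counts per gene for each library, under identifiers of each species, and 1 table of normalised signal under D. melanogaster symbols. From the values, each signal equalled a read count divided by a gene length and a library factor; 81.6% (D. pseudoobscura) to 94.9% (Canton S) of genes with at least 2 values above 0 matched 1 count row of their line within a relative tolerance of 1e-07. Among 10135 D. melanogaster genes, 63.1% of the lengths were within 1% of the exonic length in the current annotation, up to 1 common constant. Reads of eag and slo in D. simulans were not recovered. The columns headed only by D. melanogaster were taken as RAL-208, because the others name Canton S.

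Tissues were compared with limma 3.58.1 (R 4.3.3) with its trend option on log2(value + 1), line as block, over 7677 genes with a value in all 27 libraries and at least 1 in at least 9 (16 residual degrees of freedom). Rows complete in at least 4 lines (9201 genes) were fitted likewise for cac and Shab. The pairing by line comes from the labels; deviations of libraries of 1 line correlated at 0.625 to 0.863 over 27 pairs. Strains were compared by edgeR 4.0.16 (quasi-likelihood) for 9476 genes reaching a CPM of 1 in 2 or more libraries; the SE there is the absolute difference over the square root of F. The Benjamini-Hochberg adjustment ran over all genes of a fit. DESeq2 1.42.0 was an alternative. The scripts were tested on simulated data. Nothing in the labels says that tissues of a line came from separate animals, so p-values measure the spread between these libraries.

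The members, lists and tests were chosen with earlier results of these data known. Named genes are the 10 members, at most 3 called genes with the largest difference per list and comparison, and the genes nearest in profile. No sequences were printed.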

Additional observations from a re-analysis of the deposited data

Results flagged for a closer look

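There were 30 sets of 8 or 9 libraries of 1 tissue, 1 for each gene and tissue. In 10 of them the gap of the highest or lowest library to its neighbour passed Dixon's 95% limit. The chance rate of that limit, about 1 in 20, assumes draws from 1 normal distribution. These untransformed values hold species and model differences, and the sets share the 27 libraries, so the 10 flags cannot be set against that rate. RAL-208 was the high library in 5: para at 6.07 and slo at 3.01 in the eye-antennal disc, slo at 12.6 and NaCP60E at 25.7 in the brain, and cac at 4.94 in the wing disc. The next libraries were at 3.10, 1.40, 7.37, 10.7 and 2.16.

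D. virilis was the high library in 4: Sh at 38.9 in the brain (next 22.6), and Sh at 2.13, Shal at 6.53 and eag at 0.553 in the wing disc (next 0.615, 2.02 and 0.126). Its wing library held the neuropeptide markers at 5.47% of brain, and their part in these values was not tested. Shal in the D. yakuba brain, at 2.36, was the only low library (next 14.9); it rested on 55 reads.

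The Ih difference between wing disc and brain differed between the melanogaster group and the other 4 lines by −1.95 on the log2 scale (adjusted p = 0.025, limma), in a division of the lines that was an alternative to the one reported first.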

How the results depend on the processing

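Without the replicate block (line), genes called fell from 1633 to 709 between the discs, from 4039 to 2122 for eye-antennal disc against brain and from 4622 to 2665 for wing disc against brain, and 3 rather than 6 of the 8 complete channel genes were called between the discs. Without the 5 lines named in the report these were 753 genes and 1 channel gene. Leaving out 1 line at a time gave 5 to 7 channel genes between the discs and all 8 against brain in both comparisons. The para call between the discs was lost without RAL-208 (0.74) or Canton S (0.84), over a range of 0.74 to 1.09, and without D. virilis Shab (1.07) and eag (0.55) were called. edgeR on D. melanogaster counts called 2148 genes for eye-antennal disc against brain.

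The NaCP60E difference between the discs turned to 0.24 with a pseudocount of 0.1, to 0.12 with edgeR on D. melanogaster counts, and to 0.027 and 0.17 with edgeR and DESeq2 on recovered reads; leaving out 1 line gave −0.12 to 0.13. Its interaction turned to −0.60 with a pseudocount of 0.1 and ranged from −0.18 to 0.45 without single lines.

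The lineage interactions called 5 genes (no filter on low values) or 8 (Sophophora against the subgenus Drosophila) between the discs, instead of 0; 0 (melanogaster group) or 45 (subgenus) for eye-antennal disc against brain, instead of 5; and 62 or 24 for wing disc against brain, instead of 41, with 1 channel gene, Ih, under the melanogaster group. Without single lines the genes called ranged over 0 to 1, 2 to 9 and 5 to 73, and channel genes over 0 to 1 in the last.

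Between the strains, DESeq2 called 504 genes and 2 channel genes, no filter on low counts 43 genes, and the fit without the replicate block 0 genes. Leaving out 1 tissue gave 0 to 333 genes and 0 to 5 channel genes. Shal turned to 0.052 without the block and Shaw to −0.024 with DESeq2; without single tissues Sh ranged from −0.10 to 0.71, Shal from −0.54 to 0.22 and Shaw from −0.30 to 0.36. The cause of these changes was not tested.

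In the wing disc para had 1 to 15 reads in a library and eag 0 to 20, which limits the precision of these values.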
